A study of Homo sapiens with 30 samples.

Results

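Open chromatin was compared between anterior neural ectoderm on day 2 (aNE) and the cells obtained from it on day 4 after transfer to telencephalon medium (aNE_T). Each population has 1 deposited peak list. Peaks of all 10 lists of the series on chromosomes 1 to 22 were merged wherever they overlapped by 1 bp or more, which gave 476170 regions, and a list was called open at a region where it had a peak. The members are the 204614 regions open in aNE or aNE_T. A region was called gained when it was open in aNE_T and closed in aNE, lost in the reverse case, and kept when both lists were open.

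All libraries came from H1, an established and unmodified human embryonic stem cell line, by OmniATAC-seq of 50000 cells per library. This assay reads accessible DNA from the places where a transposase has cut and tagged it. The series has 30 libraries in 10 groups of 3. Pluripotent cells (hPSC, day 0) were turned into definitive ectoderm (DE, day 1) with A8301, trametinib, C59 and LDN193189. For aNE, DE cells were resplit and kept for 1 day in CDM2 base medium with the TGF-beta receptor inhibitor A8301 at 1 µM, the BMP receptor inhibitor LDN193189 at 100 nM, the WNT secretion inhibitor C59 at 1 µM and Thiazovivin. For aNE_T, the labels name CDM2 with the tankyrase inhibitor XAV939 at 1 µM, LDN193189 at 100 nM and FGF2 at 20 ng/mL on day 3. What the medium held after that is not given in the sources used here. Plating density was 37500 cells per square cm for cultures ended on day 2 and 75000 for longer ones, so medium, time in culture and plating density cannot be told apart. The other day 4 groups from aNE received midbrain (aNE_M) or hindbrain (aNE_H) medium. Posterior neural ectoderm (pNE, day 2) was made with the retinoic acid receptor agonist TTNPB, FGF2 and XAV939, and gave pNE_T, pNE_M and pNE_H in the corresponding media.

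A peak marks DNA that the transposase could reach, often a promoter or an enhancer bound by transcription factors. Anterior neural ectoderm is the early neural plate tissue from which the forebrain develops, and the telencephalon is its most rostral derivative. SIX3, LHX2, PAX6 and OTX2 are transcription factors of forebrain development, whereas HOX genes act from the hindbrain backwards, and WNT inhibition favours rostral fates.

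Among the 15101 protein-coding promoters in the RefSeq table (GRCh38.p14, 250 bases before to 50 after the start), 238 lay in a gained region (1.58%) and 86 in a lost one (0.569%). The other promoters were kept open (11425) or had no peak in both lists (3352). Of the genes in the 14 marker and pathway lists used below, 121 had an entry. None of their promoters was gained, 101 were kept, 17 were closed in both lists and 3 were lost. The 3 lost promoters, of HOXB1 (a hindbrain HOX factor), LMX1B (a LIM homeodomain factor of the midbrain-hindbrain boundary) and STRA6 (a membrane receptor for retinol uptake), are shown because they were the only list promoters to change class. Capitals mark the GC box GGGCGG on either strand, bound by SP family factors.
HOXB1 (chr17:48530962-48531261, minus strand): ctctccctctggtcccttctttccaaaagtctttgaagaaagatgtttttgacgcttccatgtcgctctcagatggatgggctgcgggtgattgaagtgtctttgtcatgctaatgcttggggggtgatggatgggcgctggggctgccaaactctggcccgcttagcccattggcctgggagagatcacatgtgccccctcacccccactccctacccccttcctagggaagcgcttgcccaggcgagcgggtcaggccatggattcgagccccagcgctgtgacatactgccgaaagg
LMX1B (chr9:126613678-126613977, plus strand): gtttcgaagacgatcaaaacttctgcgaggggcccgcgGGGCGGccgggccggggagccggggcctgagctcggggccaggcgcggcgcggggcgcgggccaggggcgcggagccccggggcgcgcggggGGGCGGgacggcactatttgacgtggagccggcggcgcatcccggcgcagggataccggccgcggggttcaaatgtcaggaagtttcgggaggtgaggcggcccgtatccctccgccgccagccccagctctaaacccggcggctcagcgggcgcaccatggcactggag
STRA6 (chr15:74212210-74212509, minus strand): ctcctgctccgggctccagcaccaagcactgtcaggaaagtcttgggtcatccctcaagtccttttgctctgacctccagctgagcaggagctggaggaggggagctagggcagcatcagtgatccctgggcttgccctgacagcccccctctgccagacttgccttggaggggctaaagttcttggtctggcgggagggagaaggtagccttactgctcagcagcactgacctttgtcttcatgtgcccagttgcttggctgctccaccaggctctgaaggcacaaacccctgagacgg

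The HOXB1 promoter lay under an aNE peak of 356 bp. It was open in hPSC, DE, aNE, pNE and all 3 pNE-derived lists and closed in aNE_T, aNE_M and aNE_H. The LMX1B and STRA6 promoters were open in aNE alone among the 10 lists, under peaks of 125 bp and 134 bp, and 125 bp is the narrowest width in that list. These 2 losses rest on peaks near the lower limit of width, whereas the HOXB1 peak was wider than the aNE median of 309 bp.

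Among gained promoters of genes with a name beyond a LOC number, the widest aNE_T peaks were at TRH, RIT2 and ISX, which are shown for comparison. The LOC124900189 promoter, with a peak of 695 bp, also ranked above RIT2. TRH encodes thyrotropin-releasing hormone, RIT2 a neuronal RAS-like GTPase and ISX an intestinal homeodomain factor.
TRH (chr3:129974470-129974769, plus strand): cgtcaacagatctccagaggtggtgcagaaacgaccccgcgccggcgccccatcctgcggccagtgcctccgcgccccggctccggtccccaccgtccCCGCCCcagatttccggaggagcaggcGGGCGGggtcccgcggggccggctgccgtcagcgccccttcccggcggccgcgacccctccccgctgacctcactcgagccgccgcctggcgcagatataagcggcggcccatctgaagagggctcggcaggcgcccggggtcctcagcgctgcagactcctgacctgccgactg
RIT2 (chr18:43115636-43115935, minus strand): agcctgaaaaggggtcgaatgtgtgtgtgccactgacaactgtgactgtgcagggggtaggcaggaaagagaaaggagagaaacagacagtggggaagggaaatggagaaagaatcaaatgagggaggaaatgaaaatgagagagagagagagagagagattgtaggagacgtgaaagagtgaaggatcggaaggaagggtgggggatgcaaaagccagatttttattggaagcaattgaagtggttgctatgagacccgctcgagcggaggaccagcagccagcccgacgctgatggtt
ISX (chr22:35065908-35066207, plus strand): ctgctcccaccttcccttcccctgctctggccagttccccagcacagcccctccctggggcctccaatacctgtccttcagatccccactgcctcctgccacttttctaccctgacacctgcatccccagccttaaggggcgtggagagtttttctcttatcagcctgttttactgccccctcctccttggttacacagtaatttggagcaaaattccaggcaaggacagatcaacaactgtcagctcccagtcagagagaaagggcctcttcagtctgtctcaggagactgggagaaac

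The aNE_T peak was 864 bp wide at TRH, 683 bp at RIT2 and 666 bp at ISX. The TRH promoter was open in 8 lists, all but DE and aNE, and the RIT2 promoter also in 8, all but aNE and aNE_H. The ISX promoter was closed in hPSC, DE, aNE and pNE and open in all 6 day 4 lists. Gained promoters were poorer in CG dinucleotides than kept ones, with a median of 5 against 26 in 300 bases. The lost promoters had a median of 6, and promoters closed in both lists 4. A GC box (GGGCGG, both strands) was found in 21.8% of gained, 37.2% of lost and 71.8% of kept promoters, beside 58.9% of all. A TATAAA match was found in 14.7% of gained, 10.5% of lost and 5.65% of kept promoters, beside 9.71% of all. The homeodomain core TAATTA was present in 5.46% of gained, 2.33% of lost and 1.80% of kept promoters, against 3.40% of all. These matches describe the letters of the windows and do not show binding.

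The aNE list held 162041 peaks on chromosomes 1 to 22, the fewest of the 10 lists, and aNE_T held 191380. Median peak width was 309 bp in aNE and 302 bp in aNE_T, and the peaks covered 72.9 Mb and 84.3 Mb. Each group of 3 replicates has 1 list, and how the replicates were combined is not given in the sources used here. The lists give positions only, so no value has a replicate error and no test between groups was possible. Read depth is unknown. The 95% Wilson intervals of shares below cover the sampling of regions and no library or replicate error.

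Most regions open on day 2 were still open on day 4. Kept regions numbered 129103, or 63.1% of the 204614 (62.9 to 63.3). Gained regions numbered 52364, or 25.6% (25.4 to 25.8), and lost regions 23147, or 11.3% (11.2 to 11.5), which is 2.26 gained per lost region. The aNE_T list is longer, so the comparison was repeated with each list cut to its 162041 widest peaks, which removed 29339 aNE_T peaks and left none below 158 bp there. At equal size 34829 regions were gained (18.6%), 32111 lost (17.2%) and 120170 kept (64.2%), a ratio of 1.08. Lists of equal length force gains and losses towards equal numbers, so this ratio carries no direction of its own. Of the 52364 gained regions 34953 (66.8%) retained their aNE_T peak after the trimming. Of the 32111 regions lost at equal size, 8934 (27.8%) still had a narrower aNE_T peak among those deposited and 23177 (72.2%) had none. The kept share was thus about the same in both versions, while the excess of gains was not.

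**Figure D1:**
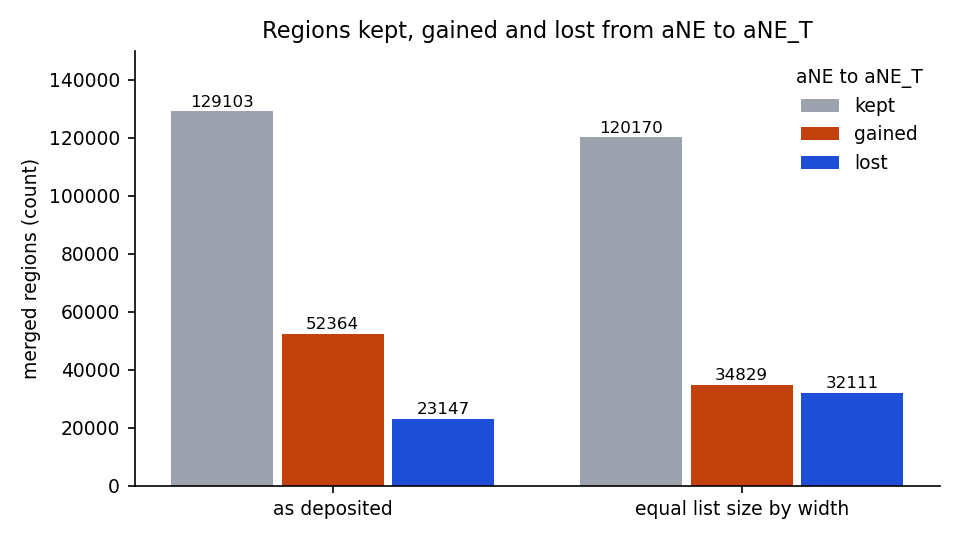
Number of merged regions (vertical axis, count) kept, gained and lost from aNE to aNE_T, for the lists as deposited and for the 162041 widest peaks of each list. Kept regions form the tallest bar in both versions, at 129103 and 120170, and the bars of gained and lost regions are near each other only at equal size.

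Gained and lost regions were narrow. The median width of the widest peak was 188 bp in gained regions (aNE_T) and 178 bp in lost ones (aNE), against 407 bp and 371 bp for kept regions in aNE_T and aNE. In gained regions 82.5% of the peaks were below the aNE_T list median, and in lost regions 88.5% were below that of aNE. Peaks of 1000 bp or more occurred in 48 gained and 5 lost regions, beside 17098 kept regions in aNE_T. Change of class was therefore concentrated among the narrow peaks of each list.

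Gained and lost regions also lay away from genes' ends more often than kept regions did. Within 1 kb of an annotated gene's start or stop lay 8.41% of gained, 9.32% of lost and 20.3% of kept regions. Beyond 50 kb lay 17.0% of gained, 14.2% of lost and 12.5% of kept regions. The shares inside a protein-coding gene were close, at 51.2%, 51.8% and 52.8%. By chromosome the gained share ran from 18.9% on chromosome 19 and 23.3% on chromosome 17 to 27.1% on chromosome 3. Chromosome 19, which is dense in genes, also had the lowest lost share (8.35%) and the highest kept share (72.8%), and the highest lost share was 13.4% on chromosome 4. Only 11.8% of gained regions (6155), 10.5% of lost regions (2431) and 0.360% of kept regions (465) were open in no list other than aNE or aNE_T.

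The earlier lists show how far the gained regions had been open before. Of the gained regions 49.8% had a peak in hPSC or DE, so they were open on day 0 or day 1, closed in aNE on day 2 and open in aNE_T on day 4. The share open in hPSC or DE was 55.7% over all 476170 regions and 81.3% over those open in aNE or aNE_T, so gained regions were below both. This group consisted of 22.4% open in hPSC and DE, 19.0% in DE alone and 8.41% in hPSC alone. The remaining 26291 (50.2%) were closed in both. Lost regions more often had an earlier peak: 73.3% were open in hPSC or DE, 49.7% in hPSC and 65.1% in DE. For kept regions the share open in hPSC or DE was 95.5%. At equal list size the share open in hPSC or DE was 34.0% for gained and 60.4% for lost regions, beside 55.8% over all regions. Lost regions were above gained ones in both versions. DE had 238994 peaks and hPSC 205831, more than aNE in each case, and the part of list length in these shares was not tested beyond that trimming.

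The posterior lists, which share no library with aNE or aNE_T, were open at 44.3% of gained regions in pNE and 44.4% in pNE_T, beside 39.2% and 41.3% over all regions. Over regions open in aNE or aNE_T the shares were 72.8% and 66.6%, so gained regions were above the former background and below the latter. For lost regions these shares were 42.2% in pNE and 29.9% in pNE_T, and for kept regions 89.9% and 82.3%. Lost regions were thus open less often in the day 4 than in the day 2 posterior list, while gained regions were open in both at nearly the same share. At equal list size pNE was open at 37.4% of gained and 36.0% of lost regions, beside 43.8% of all. In that version pNE_T was open at 37.0% of gained and 24.1% of lost regions, beside 44.5% of all. Of the gained regions 17238 (32.9%) were closed in hPSC, DE and pNE as well, and 29.7% of these were open in pNE_T. Over all regions closed in hPSC, DE and pNE that share was 28.6%, close to it, and at equal size the shares were 26.8% for gained and 33.6% for all such regions.

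**Figure D2:**
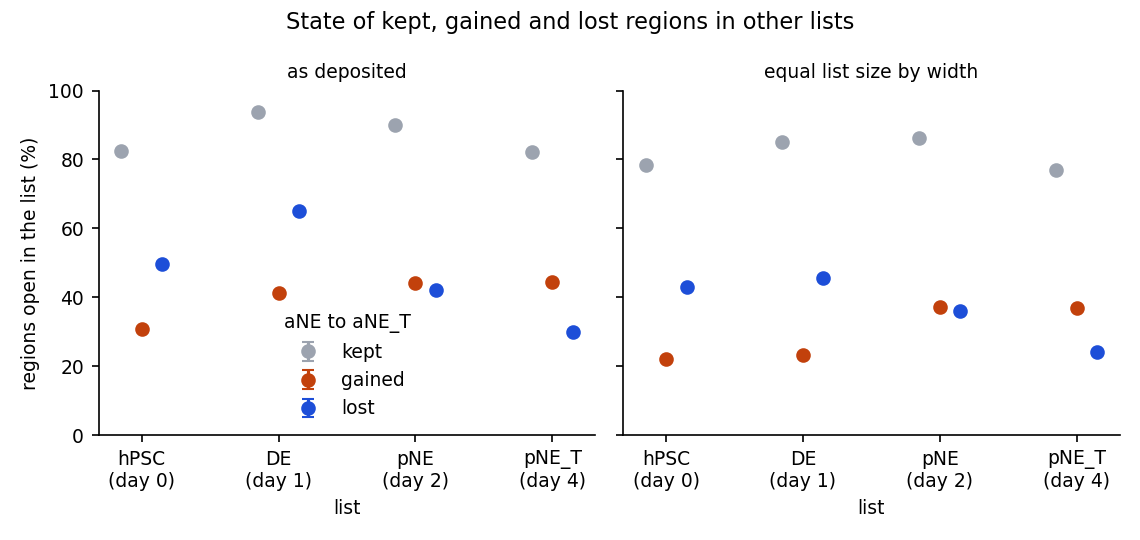
Share (vertical axis, %) of kept, gained and lost regions that were open in the hPSC, DE, pNE and pNE_T lists (horizontal axis), as deposited and at equal list size, with 95% Wilson intervals that are smaller than the symbols. Lost regions lie above gained ones in hPSC and DE (49.7% and 65.1% against 30.8% and 41.4%) and below them in pNE_T (29.9% against 44.4%).

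The transition into telencephalon medium left a higher share of the open regions in place than the 3 transitions set beside it. The moves from aNE to aNE_M and to aNE_H start from the same aNE list, so the 3 comparisons are not independent. From aNE to aNE_M 74499 regions were gained, 27939 lost and 124311 kept (54.8%). From aNE to aNE_H 70659 were gained, 37739 lost and 114511 kept (51.4%). From pNE to pNE_T, which shares neither list, 65509 were gained, 55062 lost and 131363 kept (52.1%). At equal size the kept shares were 64.2% for aNE_T, 56.9% for aNE_M, 52.4% for aNE_H and 51.9% for pNE_T. The order of the first 3 was the same in both versions. Without replicate values these differences between lists could not be tested against the spread between libraries.

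Kept regions were slightly wider on day 4. The median ratio of covered bases, aNE_T to aNE, was 1.05 per kept region. Covered bases were more than 2-fold higher in aNE_T in 8961 kept regions (6.94%) and more than 2-fold lower in 4441 (3.44%). At equal size these numbers were 8762 (7.29%) and 2981 (2.48%). A region inside MAF (chr16:79429105-79430567) grew from 189 to 1463 covered bases and one inside PTPN3, a tyrosine phosphatase gene (chr9:109418101-109419740), from 364 to 1640. A region between genes on chromosome 2, nearest to SLC4A3 (chr2:219997267-219998523), went from 1257 to 228 covered bases. These kept regions were chosen after their values were seen.

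The 5 widest gained peaks more than 1 kb from a gene end were between 1263 and 1295 bp wide. The widest (chr1:204262693-204263987) lay inside PLEKHA6 and was also open in DE, pNE, aNE_M and aNE_H. The second (chr11:92803644-92804924) lay inside FAT3, an atypical cadherin gene, and was open in 7 lists, hPSC and DE among them. The third (chr1:175647410-175648686) lay inside TNR, which encodes the extracellular matrix protein tenascin-R of the nervous system. It was open in aNE_T, aNE_M, aNE_H and pNE_H and in no list before day 4. The other two were an intergenic peak nearest to MACROD2 (chr20:16080996-16082261, open in DE and all 6 day 4 lists) and a peak inside ACOXL (chr2:111054424-111055686, open in 8 lists, all but hPSC and aNE).

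The 5 widest lost peaks under the same rule were between 912 and 1176 bp wide. The widest lay near CD47 (chr3:108020824-108021999) and was open in hPSC, DE, aNE and all 4 posterior lists but in none of aNE_T, aNE_M and aNE_H. A peak inside NTM (chr11:132006520-132007431), which encodes the neuronal adhesion protein neurotrimin, was likewise closed in all 3 aNE-derived lists and open in the posterior ones and DE. A peak inside ATP2C2 (chr16:84378810-84379899) was open in 9 lists, all but aNE_T. The peak nearest to BDH1 (chr3:197436088-197437162) was open in DE and aNE alone, and the one inside AGAP1 (chr2:236117894-236118834) in 6 lists. None of the 5 gained peaks was open in aNE_T alone, and the ATP2C2 peak was the 1 of the 5 lost peaks that was closed in aNE_T alone.

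Each region was then given to the protein-coding gene with the nearest end, which describes position and not regulation. AUTS2 had the most gained regions. It is a long gene with a role in neurodevelopment (chr7:69598475-70793506). Of its 248 regions 99 were gained, 23 lost and 126 kept, so 39.9% were gained. The median over the 3015 genes with at least 20 regions was 27.5% gained (quartiles 21.7 and 34.0, 95th percentile 42.9) and 11.1% lost. At equal size AUTS2 had 68 gained and 30 lost. The 500 kb stretch with the highest net gain in the genome, a division chosen after values were seen, was the first part of this gene (chr7:69500001-70000000), with 42 gained, 3 lost and 34 kept.

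Of the 99 gained regions of AUTS2, 58 had been open in hPSC or DE, 45 were open in pNE and 50 in pNE_T, and 7 were open in no other list. The value per list for the gene with 50 kb on either side was lowest in aNE. Peaks there held 50059 bases in hPSC, 64307 in DE, 46296 in aNE and 66691 in aNE_T, with 67254 in aNE_M and 55433 in aNE_H. The posterior lists held 58664 in pNE, 59015 in pNE_T, 52877 in pNE_M and 88468 in pNE_H. The aNE list had the lowest value of the 10 and aNE_T the third highest. Over chromosomes 1 to 22 aNE also covered the fewest bases of the 10 lists (72.9 Mb).

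Long genes for neuronal adhesion and transcription followed AUTS2 in the number of gained regions, and long genes hold many regions of every class. RBFOX1, a neuronal splicing factor, had 71 gained, 29 lost and 133 kept regions, which is 30.5% gained and near the median. LSAMP, an adhesion protein of limbic neurons, had 59 gained and 15 lost, and the axon guidance receptor ROBO1 had 54 and 17. TENM2, of the teneurin adhesion family, had 54 gained and 10 lost, KIRREL3 52 and 8, and the cadherin CDH4 51 and 11. TENM3 had 53 gained and 34 lost, the most lost regions of any gene, and at equal size its losses (52) exceeded its gains (32).

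MAF had the highest gained share of these 10 genes. It encodes a bZIP transcription factor (chr16:79202622-79600737 in this table) and had 55 gained, 6 lost and 52 kept regions, 48.7% gained, which is above the 95th percentile of genes. At equal size it had 46 gained and 9 lost (44.2% gained, 95th percentile 35.4). Of its gained regions 35 were closed in hPSC and DE, 32 were open in pNE_T and 6 were open in no other list. ZFHX3, a homeodomain zinc finger factor (chr16:72782885-73891930), had 53 gained, 13 lost and 67 kept, or 39.8% gained, and 45 gained against 17 lost at equal size. Of its gained regions 32 were closed in hPSC and DE and 30 were open in pNE_T. At both genes more gained regions were closed than open in the day 0 and day 1 lists, the reverse of AUTS2.

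**Figure D3:**
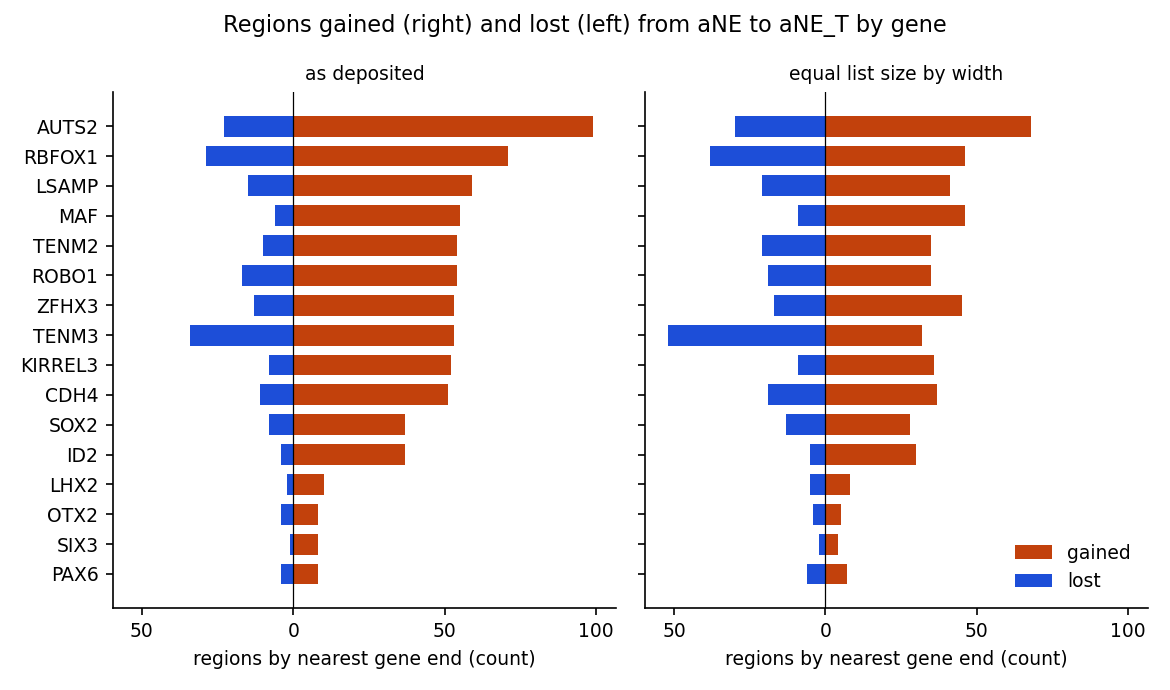
Regions gained (bars to the right) and lost (bars to the left) by nearest gene end (horizontal axis, count), as deposited and at equal list size, for the 10 genes with most gained regions, for SOX2 and ID2, and for LHX2, PAX6, OTX2 and SIX3. AUTS2 has the longest gained bar in both versions (99 and 68), and TENM3 is the gene whose lost bar is the longer one at equal size (52 against 32).

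By share of regions gained, CYP19A1 (aromatase) led with 13 gained, 1 lost and 7 kept (61.9%), followed by FOCAD with 14, 0 and 9 (60.9%). FBN1, the microfibril protein fibrillin-1, had 17 gained, 2 lost and 10 kept, and SNX18, a sorting nexin, 19, 1 and 13. The fat mass gene FTO, chosen after its values were seen, had 28 gained, none lost and 23 kept, and 23 gained and none lost at equal size. These loci were chosen for their gains, so the excess of gains as deposited follows from the choice. Gains also exceeded losses at equal size, which keeps the wider part of the same peaks and is no separate support.

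The genes with the highest share lost had far fewer regions than AUTS2. TRIM24, a transcriptional cofactor, had 4 gained, 11 lost and 9 kept (45.8% lost), and 14 lost against 3 gained at equal size. The 500 kb stretch around it (chr7:138500001-139000000) had 4 gained, 17 lost and 35 kept, the highest net loss of all such stretches. FOXP2, a forkhead factor expressed in cortical and striatal neurons, had 5 gained, 11 lost and 13 kept (37.9% lost). PAWR, a pro-apoptotic regulator, had 4, 9 and 9, and the potassium channel gene KCNJ3 had 9, 10 and 9. By number of lost regions, TENM3 (34) and RBFOX1 (29) were followed by ARID1B, a chromatin remodelling subunit, with 27 lost and 34 gained.

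SOX2 and ID2 had the highest numbers of gained regions by nearest end among the members of the lists described next. SOX2, a factor of pluripotent and neural progenitor cells, was nearest to 37 gained, 8 lost and 53 kept regions (37.8% gained), the farthest at 530 kb, and 28 were gained against 13 lost at equal size. Of its 37 gained regions 22 had been open in hPSC or DE. ID2, an inhibitor of bHLH factors and a BMP target, was nearest to 37 gained, 4 lost and 44 kept regions (43.5% gained), and to 30 gained and 5 lost at equal size. The farthest gained region of ID2 lay at 775 kb. Of its 37 gained regions 15 had been open in hPSC or DE, 23 were open in pNE_T and 6 in no other list. Within 50 kb, by contrast, SOX2 had 5 gained and 4 lost regions, so most of its gained regions lay farther out. NR2F1, a nuclear receptor of the telencephalon list, had 31 gained, 7 lost and 49 kept regions by nearest end.

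**Figure D4:**
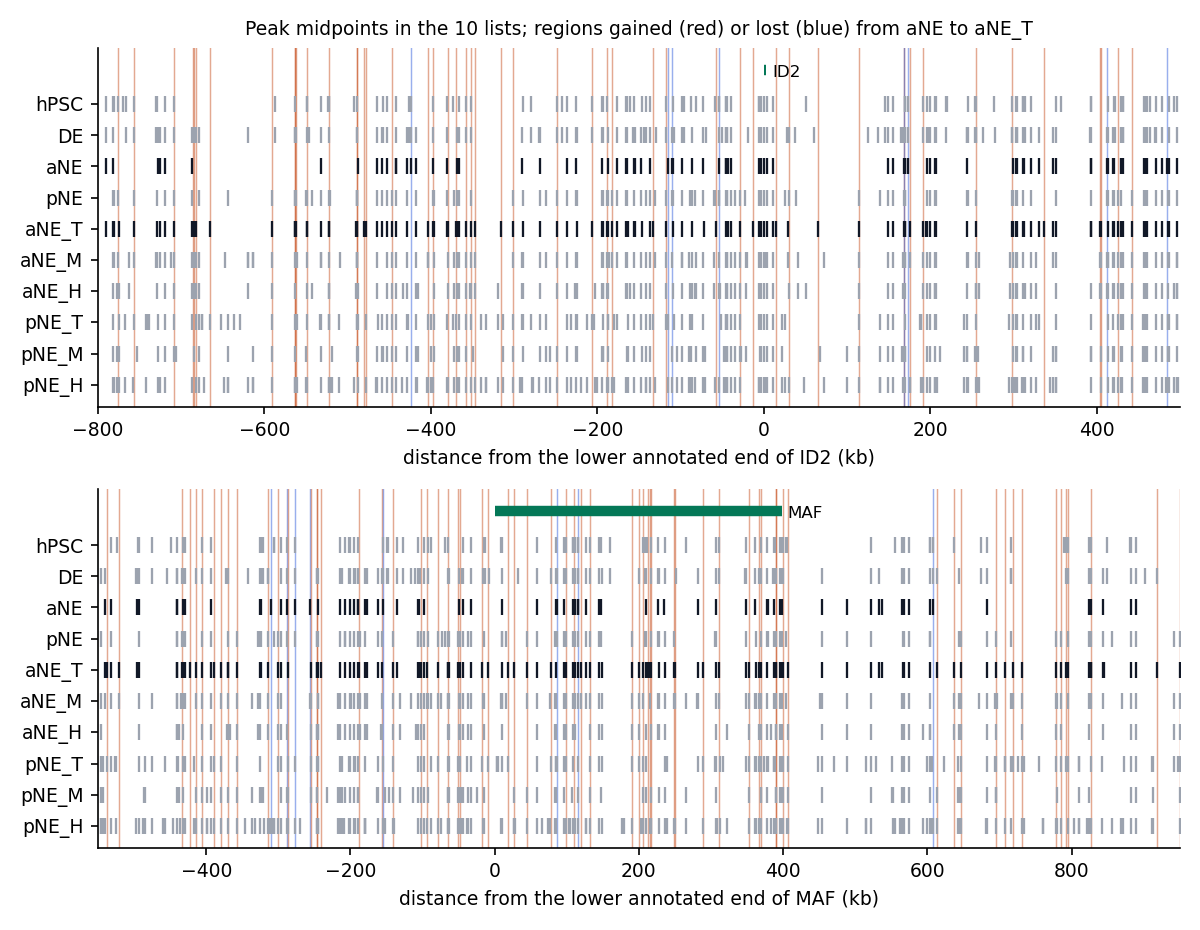
Midpoints of peaks (ticks) in the 10 lists (rows) against distance from the lower annotated end (horizontal axis, kb) of ID2 and of MAF, with regions gained from aNE to aNE_T as red lines, lost ones as blue lines and the gene as a green bar. Gained regions are spread along both intervals, at ID2 as far as 775 kb from the gene, and lines at the edges can be nearer to another gene.

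The 14 gene lists comprised 168 genes on chromosomes 1 to 22, each with a window of 50 kb on either side. Across all 19126 protein-coding genes, 62.5% had more gained than lost regions in this window and 17.9% had more lost than gained. At equal list size these shares were 35.1% and 40.7%. A list near these shares says nothing particular about its genes. The median gene had 2 gained and 1 lost region, and 2 and 2 at equal size.

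Within 50 kb, telencephalon genes were near the background. Of 15, 10 had more gained than lost regions and 1 had more lost, with 47 gained and 22 lost in sum, and at equal size 6 and 7 genes with sums of 27 and 28. LHX5 had 6 gained and 3 lost, DMRTA2, a regulator of cortical progenitors, 5 and 2, and the cortical factors EMX1 and EMX2 4 and 1, and 4 and 2. SP8, a zinc finger factor of the rostral forebrain, had 2 gained and 3 lost. In the window EMX2 had 1 gained and 3 lost at equal size, whereas by nearest end it had 16 gained and 3 lost as deposited and 8 and 5 at equal size. By nearest end, a summary added after values were seen, the whole list had 109 gained (29.0%, beside 25.6% of all) and 30 lost regions (7.98%, beside 11.3%). At equal size its shares were 21.0% gained and 13.0% lost, beside 18.6% and 17.2% of all.

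Eye field and rostral forebrain genes were also near the background in gains. Of 10 genes, 7 had more gained regions, none had more lost, and the sums were 39 and 13, so that 22.2% of their regions were gained beside 21.4% over all protein-coding genes. By nearest end 23.3% of their regions were gained, beside 25.6% of all, and 3 genes had more lost than gained. At equal size 5 had more gained and 2 more lost, with 28 and 19. PAX6, the eye and forebrain factor, had 7 gained, 1 lost and 15 kept, and LHX2 7, 2 and 17. OTX2, which specifies fore- and midbrain, had 6, 2 and 10, the eye field factor VAX1 6, 1 and 13, and SIX3 4, 0 and 18. RAX (1 and 1), SIX6 (2 and 2) and OTX1 (2 and 2) had equal numbers.

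In bases of peaks touching the window, PAX6 had 8108 in hPSC, 8724 in DE, 8878 in aNE and 11004 in aNE_T, with 10745 in aNE_M, 8425 in aNE_H, 9868 in pNE, 9937 in pNE_T, 8289 in pNE_M and 12774 in pNE_H. The aNE_T value was the second highest of the 10. At SIX3 the values were 9706 in hPSC, 9807 in DE, 9881 in aNE, 11483 in aNE_T, 10303 in aNE_M, 9362 in aNE_H, 10054 in pNE, 12231 in pNE_T, 9171 in pNE_M and 13038 in pNE_H. Of the 3 aNE-derived lists aNE_T had the highest value at both genes. The ratios of aNE_T to aNE were 1.24 at PAX6 and 1.16 at SIX3, beside a median of 1.11 over 18624 protein-coding genes (quartiles 1.02 and 1.20) and 1.16 over all peak bases. Peaks lay near both genes in all 10 lists, so their presence did not mark the telencephalon list.

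At OTX2 and LHX2 the anterior and posterior pairs of lists moved in opposite directions. OTX2 peaks held 9700 bases in hPSC, 9594 in DE, 7784 in aNE and 9020 in aNE_T, against 7231 in aNE_M and 7222 in aNE_H. In the posterior lists they held 6723 in pNE, 6360 in pNE_T, 6257 in pNE_M and 8172 in pNE_H. LHX2 peaks held 9315 in hPSC, 7971 in DE, 8075 in aNE, 9920 in aNE_T, 10230 for aNE_M and 7071 for aNE_H. The posterior values there were 7671 in pNE, 6230 in pNE_T, 7183 in pNE_M and 8711 in pNE_H. The ratio of aNE_T to aNE was 1.16 at OTX2 and 1.23 at LHX2, beside 1.16 over all peak bases. That of pNE_T to pNE was 0.946 and 0.812. Without replicate values these opposite directions were not tested.

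Diencephalon genes divided: 6 of 10 had more gained and 2 more lost, with sums of 36 and 23, and 22 and 27 at equal size. BARHL1 had 6 gained and none lost, and the WNT effector TCF7L2 had 9 gained and 10 lost. Midbrain and boundary genes had 56 gained and 20 lost, with 8 of 10 genes on the side of gains, and 38 and 27 at equal size. PAX2 had 10 gained and 4 lost, LMX1A 10 and 1, and PAX5 8 and 3. Of the regions in these windows 19.8% were gained for diencephalon and 19.9% for midbrain and boundary genes, beside 21.4% over all protein-coding genes. The lost shares were 12.6% and 7.09%, beside 10.4%. Gains at these genes were thus near the background.

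Within 50 kb, hindbrain genes had a larger share of losses than all genes. Of 11 genes 6 had more gained and 4 had more lost regions, with sums of 45 and 38, so that 15.4% of their regions were lost beside 10.4% over all protein-coding genes. At equal size 3 had more gained and 8 more lost, with 31 and 45. By nearest end the lost share was near the background and gains exceeded losses: 50 regions were gained (31.1%, beside 25.6% of all) and 20 lost (12.4%, beside 11.3%), and 34 and 26 at equal size. In the windows losses were most frequent at HOX genes: HOXA2 had 0 gained and 4 lost, HOXA3 1 and 6, HOXB2 5 and 6, and HOXB1 7 and 5. Neighbouring HOX windows overlap and share regions, so these are not separate observations. GBX2 and EGR2, hindbrain factors outside the HOX clusters, had 8 and 1, and 5 and 0.

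Peak bases around HOXA3 (chr7:27107010-27152583) were 16348 in hPSC, 14078 in DE, 17122 in aNE, 14740 in aNE_T, then 16354 for aNE_M and 13923 for aNE_H. In the posterior lists they were 17942 in pNE, 20262 in pNE_T, 20397 in pNE_M and 24179 in pNE_H. Around HOXB1 they were 10683 in hPSC, 8219 in DE, 8897 in aNE, 7837 in aNE_T, 7484 for aNE_M and 7859 for aNE_H. The posterior values were 9815 in pNE, 12086 in pNE_T, 12845 in pNE_M and 15448 in pNE_H. At both genes all 3 aNE-derived lists were below aNE and all 3 pNE-derived lists above pNE.

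**Figure D5:**
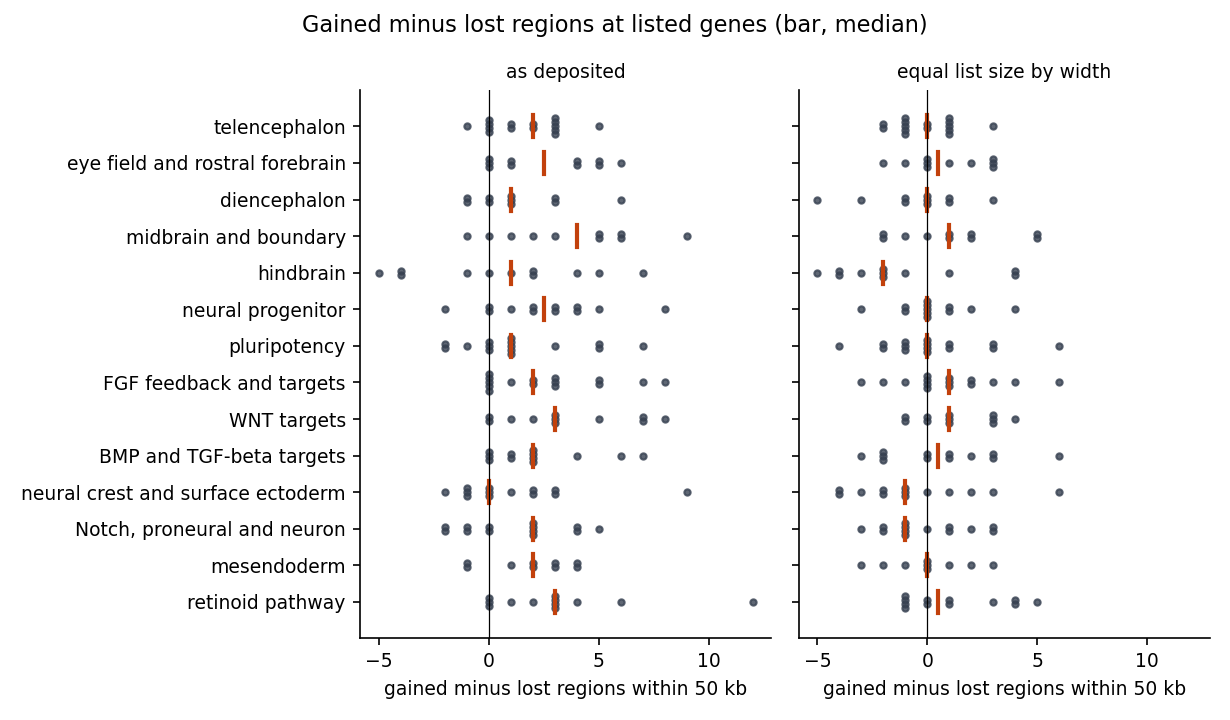
Gained minus lost regions within 50 kb (horizontal axis, count) for each gene (point) of the 14 lists (rows), as deposited and at equal list size, with the median as a bar. No list median is below 0 as deposited, and hindbrain has the lowest at equal size (-2).

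Neural progenitor genes had 50 gained and 20 lost regions, with 9 of 12 genes on the side of gains, but 39 and 36 at equal size. As deposited their gained share was 18.3%, below the 21.4% over all protein-coding genes, and their lost share 7.33%, beside 10.4%. The cadherin CDH2, typical of neural tissue, had 10 gained and 5 lost, the adhesion gene NCAM1 9 and 1, and ZIC1 6 and 2. SOX21 had 1 gained and 3 lost. At equal size CDH2 had 8 of each, so its excess of gains did not hold there.

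Pluripotency genes had 34 gained and 14 lost regions, with 9 of 15 genes more gained and 3 more lost, and 26 and 23 at equal size. As deposited both shares were below those of all protein-coding genes, with 16.8% gained beside 21.4% and 6.93% lost beside 10.4%. CDH1, the epithelial cadherin, had 8 gained and 1 lost, L1TD1 6 and 1 and SALL4 5 and 0. DNMT3B, a DNA methyltransferase of pluripotent cells, had 1 gained and 3 lost and PRDM14 0 and 2. The core factors changed little in regions, POU5F1 with 1 gained, 0 lost and 7 kept and NANOG with 1, 1 and 7. POU5F1 peaks held 5699 bases in hPSC, 6067 in DE, 3779 in aNE, 3550 in aNE_T, 2959 in aNE_M, 2217 in aNE_H, 3042 in pNE, 2350 in pNE_T, 1805 in pNE_M and 2005 in pNE_H. The larger drop at POU5F1 along the anterior lists thus lay between DE and aNE. The bases covered by the whole list also fell there, from 90.7 Mb to 72.9 Mb. The ratio of aNE_T to aNE was 0.939, beside a median of 1.11 over protein-coding genes (lower quartile 1.02), so POU5F1 was below most genes in this step too. NANOG peaks held 7131 in hPSC, 4195 in DE, 3284 in aNE, 3795 in aNE_T, 3401 in aNE_M, 3671 in aNE_H, 3533 in pNE, 2344 in pNE_T, 4100 in pNE_M and 6226 in pNE_H.

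Signalling genes were counted in 4 lists. The FGF feedback list, of genes induced by FGF and ERK signalling, had 10 of 15 genes more gained and none more lost, with sums of 59 and 20 and of 45 and 31 at equal size. The transcription factor ETV5 had 9 gained, 1 lost and 9 kept, the feedback inhibitor SPRED2 10, 3 and 32, and IL17RD 8, 3 and 22. WNT target genes had 9 of 11 more gained and none more lost, with 54 and 15, and 42 and 28 at equal size. LGR5, a receptor for R-spondins, had 8 gained and none lost and the inhibitors NKD1 and ZNRF3 9 and 2 each. Of the regions in these windows 22.1% were gained for the FGF and 23.5% for the WNT list, beside 21.4% over all protein-coding genes. The lost shares were 7.49% and 6.52%, beside 10.4%. At equal size the gained shares were 17.8% and 19.3%, beside 15.2%, and the lost shares 12.3% and 12.8%, beside 15.5%. Both lists held more gains than losses in both versions, and all genes together did so as deposited.

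BMP and TGF-beta target genes had 41 gained and 14 lost (31 and 24 at equal size), with 9 of 12 genes more gained and none more lost. SMAD6, an inhibitory SMAD, had 11 and 4, and PMEPA1 7 and 1. Within 50 kb 20.5% of this list's regions were gained, beside 21.4% over all protein-coding genes, so gains there were near the background. By nearest end, a summary added after values were seen, this list had 119 gained and 26 lost regions, or 31.6% gained beside 25.6% of all regions. ID2 alone supplied 37 of these 119. By the same measure the other 13 lists ranged from 20.3% in midbrain and boundary genes to 31.1% in hindbrain genes. Retinoid pathway genes had 55 gained and 18 lost (42 and 28 at equal size), with 9 of 12 more gained. Within 50 kb their gained share was 22.1%, also near the 21.4% over all protein-coding genes. The retinoic acid receptor gene RARB had 15 gained, 3 lost and 33 kept regions, and the retinoic acid synthesis gene ALDH1A2 6, 2 and 5. STRA6 had 7 gained and 1 lost region, the lost one being the promoter printed above.

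RARB, which retinoic acid induces, held 17848 peak bases in aNE and 20637 in aNE_T. The other lists had 13932 in hPSC, 17229 in DE, 20814 in aNE_M and 18832 in aNE_H, and 22403 in pNE, 30681 in pNE_T, 26421 in pNE_M and 46015 in pNE_H. All posterior lists were above all anterior ones. The lowest posterior value (pNE, 22403) and the highest anterior one (aNE_M, 20814) were closer together than the aNE and aNE_T values.

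Markers of other cell types that a neural culture could hold were counted in the same way. Neural crest and surface ectoderm genes had 44 gained and 29 lost regions, with 6 of 13 more gained and 4 more lost. At equal size 4 had more gained and 8 more lost, with 36 and 42. GATA2 had 11 gained and 2 lost, and the factors TP63, of surface epithelium, 8 and 5, GATA3 3 and 5 and TFAP2C 3 and 4. By nearest end 16.2% of this list's regions were lost, beside 11.3% of all. GATA2 peaks held 5789 bases in aNE and 8379 in aNE_T, the highest of the 10 lists, with 7918 in hPSC, 7273 in DE, 6536 in aNE_M, 5982 in aNE_H, 5808 in pNE, 6211 in pNE_T, 5184 in pNE_M and 7959 in pNE_H. Mesendoderm genes had 28 gained and 11 lost, and 18 of each at equal size. Their gained share as deposited was 20.0%, near the 21.4% over all protein-coding genes. Whether other cells contributed to these peaks was not tested, and peaks of a whole culture cannot show fewer cells of a type apart from less open chromatin per cell.

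Notch, proneural and neuronal genes had 34 gained and 19 lost regions, with 7 of 13 more gained and 4 more lost, and 22 and 23 at equal size. As deposited 17.3% of their regions were gained, beside 21.4% over all protein-coding genes, and 9.69% lost, beside 10.4%. The neuronal RNA-binding gene ELAVL4 had 5 gained and 1 lost, the tubulin gene TUBB3 5 and 0, and STMN2 5 and 3. The Notch effector HES5 had 3 gained and 4 lost, and the proneural factors NEUROG1 and NEUROG2 0 gained and 2 lost each. The windows of both NEUROG genes thus held no gained region, while those of ELAVL4 and TUBB3 held 5 each.

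Close to the genes' ends, changes touched a minority of list members, at shares above those of all protein-coding genes. Of the 168 list members 22 (13.1%) had a gained region within 1 kb of their ends, beside 8.80% of all protein-coding genes, and 18 (10.7%) had a lost one, beside 4.90%. LHX2, VAX1, LHX5, GSX2, PAX2, ZIC1, TCF7L2 and DBX1 had 1 gained region there and none lost, and TBXT and HOXB2 had 2 gained. NKX2-1, the ventral forebrain factor, DMRTA2, RAX, OTX1, LMX1B and HOXA3 had 1 lost and none gained, and so did the retinoic acid degrading enzyme CYP26A1. OTX2, FEZF2, HOXB1 and CYP26B1 had 1 of each. Changes at gene ends went both ways within the forebrain factors, with 3 telencephalon and 3 eye field genes on each side.

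Within 50 kb the hindbrain list stood on different sides across the other transitions. From aNE to aNE_M 3 of its 11 genes had more gained and 8 more lost regions, and from aNE to aNE_H 3 and 6, both from the same aNE list, where the shares of all genes were 67.3% and 16.3%, and 55.3% and 26.5%. From pNE to pNE_T 9 had more gained and 1 more lost, where all genes had 41.9% and 40.1%. Eye field genes had 7 more gained and 2 more lost towards aNE_M, 4 and 4 towards aNE_H, and 3 and 6 from pNE to pNE_T. The telencephalon list had 12 and 1, 8 and 3, and 8 and 6 in these comparisons, and 5 and 6, 3 and 6, and 4 and 10 at equal size, so its direction turned in all 3. At equal list size the hindbrain list had 3 and 8 towards aNE_M, 2 and 9 towards aNE_H, and 9 and 2 from pNE to pNE_T, the same sides as before. Eye field genes then had 3 more gained and 5 more lost towards aNE_M and 1 and 8 towards aNE_H, against 5 and 2 towards aNE_T, and 5 and 4 from pNE to pNE_T. The shares of all genes at equal size were 30.6% and 48.7% towards aNE_M, 30.3% and 50.6% towards aNE_H, and 35.0% and 44.8% from pNE to pNE_T.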

How the data were processed

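The data are peak lists from OmniATAC-seq, 1 per group of 3 libraries, of which aNE and aNE_T (6 libraries) are compared. The values are the start and end positions the authors deposited, without score, p-value or replicate. Per the submitters' processing notes the build is hg38, and FastQC, Bowtie2, MACS2 and bedtools are among the tools named there. Versions, peak threshold and the way replicates were combined are not given in the sources used here, and a threshold that differed between lists would move every count. Labels call the libraries replicates, and read depth is unknown.

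Peaks on chromosomes 1 to 22 were merged over the 10 lists (overlap of 1 bp or more). Genes came from RefSeq GRCh38.p14, which matched 171 of 171 list genes, of which 3 on chromosome X were left out. Promoters came from the RefSeq table of the same assembly, which is not complete. Regions were counted from 50 kb before to 50 kb after a gene and by nearest protein-coding gene end, and bases as whole peaks touching that window. The equal-size version took the 162041 widest peaks of each list. Other alternatives were the widest 50%, regions covered to 50%, windows of 500 bp, merging aNE and aNE_T alone, and regions over 1 kb from a gene end.

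Named genes were the 10 with most gained and most lost regions, the 10 with the highest share of each among genes with 20 or more regions, the 3 most gained and most lost members of each list, members with a change within 1 kb of an end, fixed genes (SIX3, OTX2, LHX2, PAX6, POU5F1 and NANOG among them), and the 5 widest gained and lost peaks. The members and lists were chosen with earlier results of these data known. Values of some single genes are not reported here. The script recovered all 56620 simulated regions with known class. Python 3.11.15, numpy 2.4.6, pandas 2.3.3 and matplotlib 3.10.9 were used.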

Additional observations from a re-analysis of the deposited data

Results flagged for a closer look

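Only the fixed genes were examined for opposite changes in telencephalon medium. At 3 of them the peak bases within 50 kb changed in opposite directions from the anterior and from the posterior origin. The difference was not tested because each group has 1 list. The share of all protein-coding genes with opposite changes was not counted. At OTX2 the change was 1236 bases from aNE to aNE_T and -363 from pNE to pNE_T. At LHX2 it was 1845 and -1441, and at NANOG 511 and -1189. The ratio of aNE_T to aNE was 1.16 at OTX2, 1.23 at LHX2 and 1.16 at NANOG, beside 1.16 over all peak bases. The anterior rise at OTX2 and NANOG was thus near that of the whole list.

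Peaks outside chromosomes 1 to 22 were not used in the comparison and numbered 15693 in aNE (8.83% of the list) and 16444 in aNE_T (7.91%). On chromosome X alone 1562 regions were gained (22.9%), 854 lost (12.5%) and 4409 kept (64.6%) of 6825.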

How the results depend on the processing

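The counts moved with list length and with the strictness of the lists. At equal list size gained regions numbered 34829, genes with more gained than lost regions 6707 instead of 11963, and genes with more lost 7790 instead of 3421. With the widest 50% of each list 26545 regions were gained, 11970 lost and 67045 kept, and with 50% of a region covered 78610 were kept. The Jaccard index of aNE and aNE_T (kept regions over all regions open in either) was 0.631 as deposited, 0.642 at equal size, 0.635 with the widest 50%, 0.490 with 50% covered, 0.642 in windows of 500 bp, 0.611 with aNE and aNE_T merged alone and 0.599 beyond 1 kb from gene ends. The share of gained regions open in hPSC or DE was 34.0% at equal size, 50.3% with the widest 50%, 43.5% with 50% covered and 51.8% in windows of 500 bp. For lost regions these were 60.4%, 76.9%, 70.8% and 75.6%. Gained regions open in pNE_T made up 37.0%, 43.7%, 36.2% and 46.3%. Kept regions over 2-fold wider made up 7.29% at equal size and 2.27% with the widest 50%, and narrower ones 2.48% and 1.22%. Lost stayed above gained regions in the share open in hPSC or DE in each of these versions.

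Gained minus lost changed sign at equal size within 50 kb for the telencephalon (-1), diencephalon (-5), hindbrain (-14), neural crest (-6) and Notch (-1) lists. By nearest end it did so for TENM3 (-20), ARID1B (-14), DLGAP1 (-4) and TENM4 (-3). It did so with the widest 50% for hindbrain (-18), pluripotency (-3), CNTNAP2 (5) and LHX2 (-4), and with 50% covered for hindbrain (-2). Of the 38 list and gene results, 37 kept their sign and changed by less than a factor of 1.5 in windows of 500 bp, and 36 with aNE and aNE_T merged alone and beyond 1 kb from gene ends. Equal size makes fewer regions count as gained by its construction, and the cause of the other changes was not tested. No paired analysis was possible because each group has 1 list with no replicate values, which also prevents leaving out a replicate. Without depth, a narrow peak absent from a list cannot be told from one missed there.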
